A study of Homo sapiens with 33 samples.

Results

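The genes described here were 10 Eph receptors, EPHA1, EPHA2, EPHA3, EPHA4, EPHA5, EPHA7, EPHB2, EPHB3, EPHB4 and EPHB6. They were taken by symbol from a table of 29744 genes, in which 14 Eph receptors had a row. The list was chosen on the expression of these genes in PEO6 against PEO1, where EPHA3 stood out, with earlier results of these data in view. The values of the receptors in that comparison, and the EPHA3 level of PEO6 in any comparison, are therefore given as a description with no test. PEO4 against PEO1 and PEO6 against PEO4 share libraries with that comparison, so their adjusted p for the members are not independent of the choice.

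RNA-seq was performed on 11 cell lines labelled as high-grade serous ovarian carcinoma (HGSOC), with 3 libraries of each line and 33 libraries in all. The lines formed 4 isogenic families, and each family had 1 platinum-sensitive line and 1 or 2 platinum-resistant lines. OVCAR3 and OVCAR4 were the sensitive parents of OVCAR3 ResA, OVCAR3 ResB, OVCAR4 ResA and OVCAR4 ResB, which were derived in the laboratory by repeated pulses of cisplatin as separate derivations and were not kept in cisplatin afterwards. PEA1 was the sensitive line paired with the resistant PEA2, and PEO1 the sensitive line paired with the resistant PEO4 and PEO6, all of which were established from patient material at different points of the disease. No library is labelled as drug-treated, so each comparison is between lines and not between treatments. Each line is a single derivation, so within a pair the line and its resistance cannot be told apart.

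Eph receptors are the largest family of receptor tyrosine kinases. Their ligands, the ephrins, are held on the surface of the neighbouring cell, so that signalling needs contact between cells and can run into both of them. A-class receptors mainly bind the lipid-anchored ephrin-A proteins and B-class receptors mainly bind the transmembrane ephrin-B proteins, with EPHA4 known to bind both. In epithelia the family is known for adhesion, cell sorting and boundary formation, and EPHA2 in particular has been studied in ovarian carcinoma.

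The libraries held 18058985 to 43394009 expected counts, and 4956 genes had none in any library. The library nearest in overall expression came from the same line for 31 of 33 libraries and from the same family for all 33. Replicate libraries differed by more than sampling noise, and nothing in the labels says that they came from separate cultures, so adjusted p-values measure the spread between these libraries only. Mitochondrial ribosomal RNA took between 1.12% and 14.8% of counts. Of 8 epithelial and Müllerian markers, 7 or 8 reached 1 TPM (the transcript-length-scaled unit of the deposited tables, with a common sum in each library) in every line. Their summed level ranged from 2604 to 6511 TPM in 10 lines and was 428.7 TPM in PEA1, in which EPCAM, KRT7, CDH1 and MUC16 were all far below PEA2.

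The sequence upstream of a gene's start is shown for EPHA3 and EPHA1, which had the highest ratios between lines of 1 family among members with a count in both lines. Both windows are the 250 bases before the RefSeq start (build GRCh38.p14), written 5′ to 3′ on the strand of the gene, with each CG dinucleotide in capitals. EPHA3 lies on the plus strand of chromosome 3, and its window is chr3:89107371-89107620. EPHA1 lies on the minus strand of chromosome 7, and its window is chr7:143408857-143409106.
EPHA3: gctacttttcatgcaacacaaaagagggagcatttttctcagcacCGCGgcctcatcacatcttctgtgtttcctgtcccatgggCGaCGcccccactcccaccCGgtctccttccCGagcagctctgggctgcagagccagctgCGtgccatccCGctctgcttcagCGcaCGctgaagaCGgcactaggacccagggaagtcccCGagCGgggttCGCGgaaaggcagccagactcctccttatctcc
EPHA1: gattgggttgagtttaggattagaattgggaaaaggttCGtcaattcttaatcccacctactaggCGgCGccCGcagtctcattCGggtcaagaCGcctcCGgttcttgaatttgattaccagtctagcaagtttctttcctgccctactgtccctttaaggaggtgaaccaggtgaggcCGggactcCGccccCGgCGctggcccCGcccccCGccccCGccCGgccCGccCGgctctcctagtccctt
The EPHA3 window held 15 CG dinucleotides and was 61.2% G or C. The EPHA1 window held 17 and was 59.2% G or C. Of 35116 windows of the same length upstream of RefSeq starts, 42.9% held at least as many CG dinucleotides as EPHA3 and 39.0% at least as many as EPHA1, and the median was 11. The GC box, GGGCGG on either strand, which itself contains a CG, was found 5 times in the EPHA1 window and not in the EPHA3 window, against 42.6% of all windows with at least 1. All 10 receptors had at least 1 window in the RefSeq table, and chromatin and methylation were not measured in these libraries.

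Levels are given in TPM, which is scaled to transcript length, as the mean ± SD of 3 libraries or as the values of the 3 libraries in replicate order. Changes are log2 fold changes ± SE from DESeq2 on the counts of the 6 libraries of a comparison, with the replicate number as a block. A gene was called where the Benjamini-Hochberg adjusted p over all genes was under 0.05, and DESeq2 gave no adjusted p for genes with few counts. The floor was set at 3 counts, and a line was taken as at the floor where none of its 3 libraries went above it. Against such a line a ratio of scaled counts is given with its 95% counting interval, or, where the line had no count at all, a lower bound against 3 counts over the line. In the OVCAR4 family mitochondrial ribosomal RNA took 10.6% ± 4.94 of counts in OVCAR4, 4.44% ± 4.14 in OVCAR4 ResA and 5.98% ± 6.15 in OVCAR4 ResB. On the TPM scale the median log2 change of all genes was 0.42 in OVCAR4 ResA and 0.46 in OVCAR4 ResB, so TPM levels of that family should be read against this shift, whose part in single genes was not tested. In the other pairs that median lay between −0.11 and 0.13. In bulk RNA, fewer cells that express a gene and less RNA per cell cannot be told apart.

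**Figure D1:**
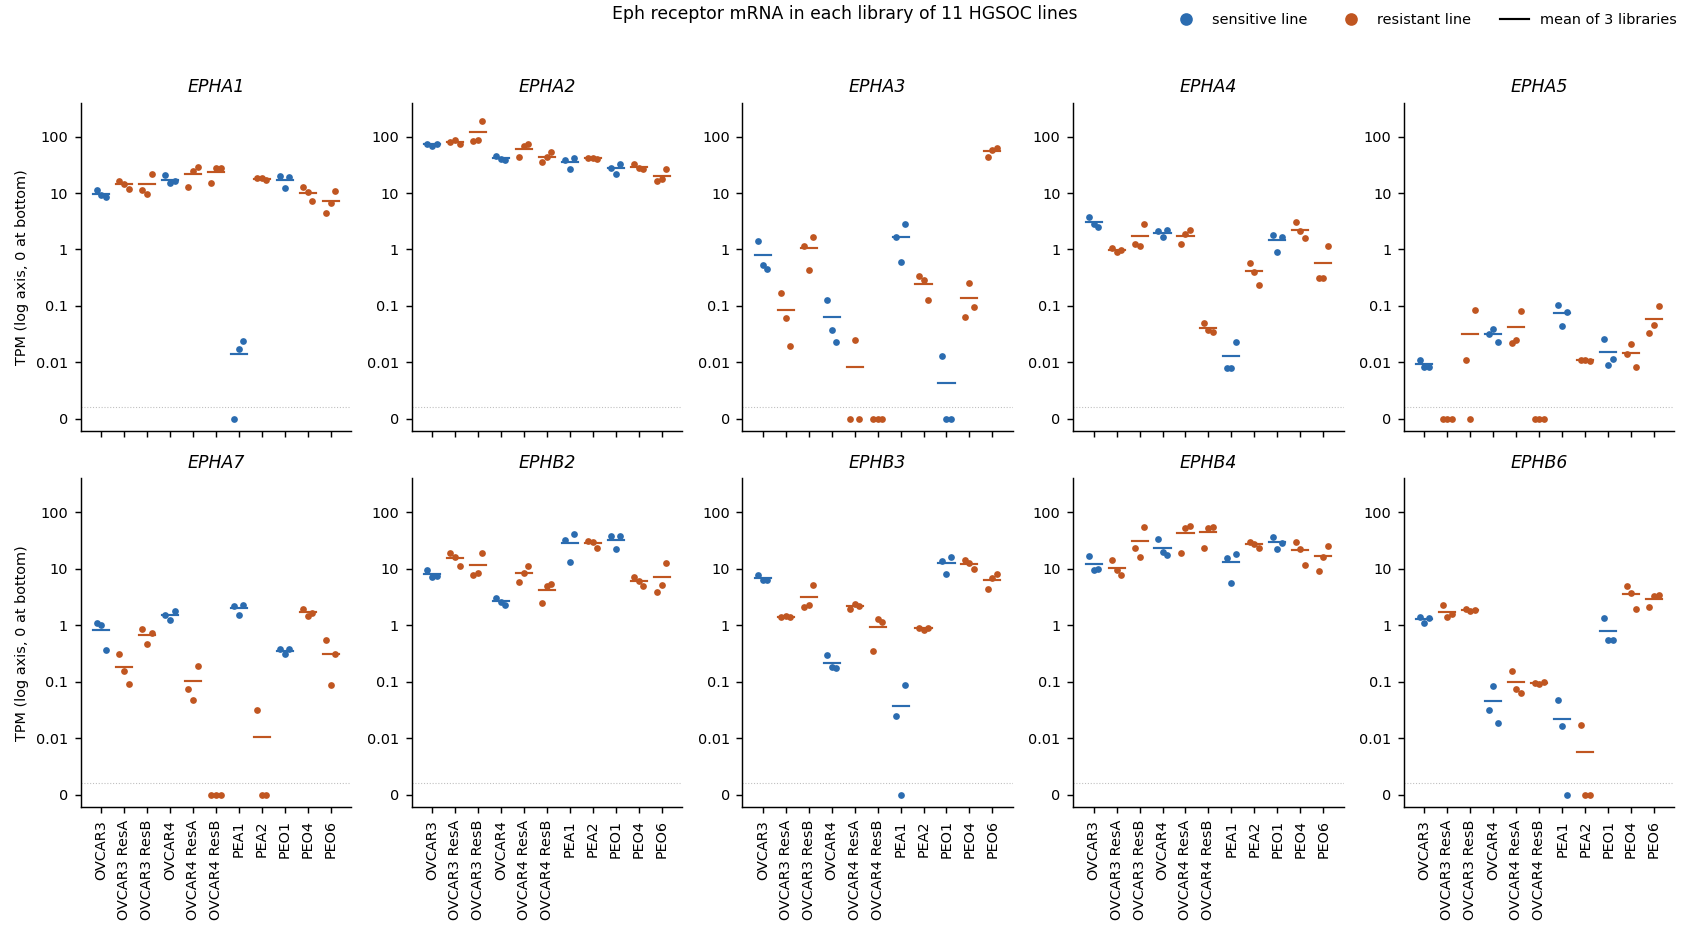
TPM of each of the 10 Eph receptors (log axis, 0 drawn at the bottom) in the 3 libraries of each of 11 lines. Blue points are libraries of sensitive lines, orange points of resistant lines, and bars are means. EPHA3 stands at 44.1 to 63.2 TPM in PEO6 and below 3 TPM elsewhere, EPHA1 is near 0 in PEA1 alone, and EPHA2 is above 16 TPM in all libraries.

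EPHA3, an A-class receptor that binds ephrin-A5 with high affinity and is widely expressed in developing tissues, was abundant in 1 line. Its levels in PEO6 were 44.1, 57.7 and 63.2 TPM, from 5048, 6042 and 6664 counts. In PEO1 the 3 libraries had 1, 0 and 0 counts, and in PEO4 they had 5, 28 and 8. The libraries of PEO6 lay above those of each of the other 10 lines with no overlap. The ratio of PEO6 to PEO1 was 1.58e+04, with a counting interval of 2.83e+03 to 6.23e+05, and the fitted difference from PEO4 was 8.64 ± 0.43 on the log2 scale. These values helped to choose the list and carry no test. PEO6 held 93.0% of the sum of the 11 line means.

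Outside PEO6, EPHA3 stayed at or below 2.78 TPM. PEA1 was next, at 1.69, 0.594 and 2.78 TPM, followed by OVCAR3 ResB at 1.16, 0.432 and 1.65 TPM and OVCAR3 at 1.40, 0.523 and 0.457 TPM. These 3 lines overlapped, so their order is not resolved by their spread. EPHA3 fell in OVCAR3 ResA, to 0.169, 0.0606 and 0.0198 TPM (−3.56 ± 0.54, adjusted p = 4.74e-10). It also fell in PEA2, to 0.334, 0.288 and 0.126 TPM (−2.46 ± 0.53, adjusted p = 1.59e-05). In OVCAR3 ResB the change was 0.30 ± 0.53 (adjusted p = 0.891), and OVCAR3 ResB was higher than OVCAR3 ResA by 3.84 ± 0.72 (adjusted p = 3.62e-06). The libraries of the 2 OVCAR3 derivations did not overlap. PEO4 was above PEO1, which was at the floor, with a ratio of 46.0 (counting interval 7.81 to 1.86e+03, adjusted p = 0.0052). The same PEO1 libraries stood in the comparison that chose the list, so the adjusted p of this rise is given as a description. Replicate 2 of PEO4 supplied 28 counts of that rise, and DESeq2 gave no adjusted p without replicate 2. In OVCAR4 and its derivatives the receptor had at most 9 counts in any library, and no adjusted p was given.

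EPHA1, the first Eph receptor to be cloned and a gene mostly of epithelia, was near 0 in PEA1 and present in all other lines. PEA1 had 0, 1 and 1 counts, and PEA2 had 18.7, 18.4 and 17.2 TPM from 1011 to 1317 counts. The ratio was 1.67e+03 with a counting interval of 461 to 1.38e+04 (fitted log2 change 10.69 ± 1.06, adjusted p = 1.86e-22). The other 9 lines lay between 7.33 ± 3.34 TPM in PEO6 and 23.5 ± 7.30 TPM in OVCAR4 ResB, so the low level was that of the sensitive line of this pair. The epithelial markers moved with it. Their sum was 404.5 to 447.2 TPM in the libraries of PEA1 and 3642 to 3875 TPM in those of PEA2, with EPCAM at 14.005 ± 1.205 against 575 ± 36.5 TPM, KRT7 at 2.95 ± 0.313 against 1186 ± 119 TPM and CDH1 at 1.26 ± 0.985 against 204 ± 26.2 TPM. PAX8 was at 74.9 ± 12.7 TPM in PEA1 and 61.7 ± 8.68 TPM in PEA2. The summed level of 5 fibroblast markers was 65.998 to 105.7 TPM in PEA1, nearly all of it COL1A1, and 0.647 to 1.16 TPM in PEA2. The part of these differences in the EPHA1 result was not tested. The antisense gene EPHA1-AS1 had no count in PEA1 and 12 to 29 counts in PEA2, and without a stated use of strand its reads cannot be told apart from those of EPHA1.

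EPHA1 was called in 2 of the other pairs tested. It was higher in OVCAR3 ResA, at 16.6, 14.7 and 12.0 TPM against 11.2, 9.22 and 8.53 TPM (0.47 ± 0.14, adjusted p = 0.00322). That call was lost without each replicate in turn, at adjusted p = 0.140, 0.0630 and 0.0567 without replicates 1, 2 and 3. It was lower in PEO4, at 12.7, 10.5 and 7.12 TPM against 20.3, 12.2 and 19.1 TPM (−0.75 ± 0.22, adjusted p = 0.00252), a pair whose libraries overlapped and whose adjusted p was 0.0965 without replicate 1. PEO6 was at 4.40, 6.63 and 10.97 TPM, below all libraries of PEO1, with a fitted difference of −1.28 ± 0.28.

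EPHA2, an A-class receptor bound by ephrin-A1 and a known drug target in carcinoma, was the most abundant member in 8 of the 11 lines. Its mean ran from 20.2 ± 5.42 TPM in PEO6 to 119 ± 57.4 TPM in OVCAR3 ResB. EPHA3 was above it in PEO6, and EPHB2 and EPHB4 were above it in PEO1, and EPHB4 was just above it in OVCAR4 ResB, by less than their SDs. It was not called in any of the 6 pairs tested, where its log2 changes ran from −0.48 to 0.51. The largest of these was in OVCAR3 ResB, at 83.9, 88.3 and 185 TPM against 69.4 to 74.7 TPM in OVCAR3 (0.51 ± 0.32, adjusted p = 0.476). Replicate 3 of OVCAR3 ResB was the highest of that line for EPHA1, EPHA2, EPHA3, EPHA4, EPHB2, EPHB3 and EPHB4. Between the OVCAR4 derivations, OVCAR4 ResB was lower than OVCAR4 ResA (−0.50 ± 0.13, adjusted p = 0.00105), which was lost without replicate 2 (adjusted p = 0.226) and without the replicate block (adjusted p = 0.105).

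EPHA4 and EPHA7, both known best from axon guidance, fell in some resistant lines and rose in others. EPHA4 was at 2.10, 1.64 and 2.19 TPM in OVCAR4 and at 1.26, 1.87 and 2.17 TPM in OVCAR4 ResA, and each library of OVCAR4 ResB held 4 counts. The fall in OVCAR4 ResB was −6.20 ± 0.62 against the parent (adjusted p = 6.41e-21) and −5.50 ± 0.57 against OVCAR4 ResA (adjusted p = 5.76e-20). EPHA4 also fell in OVCAR3 ResA, from 3.82, 2.78 and 2.52 TPM to 1.06, 0.917 and 0.963 TPM (−1.76 ± 0.22, adjusted p = 5.25e-15). It rose in PEA2, to 0.580, 0.405 and 0.240 TPM from 1, 1 and 2 counts in PEA1, a ratio of 36.9 with a counting interval of 14.1 to 137 (adjusted p = 1.27e-06). PEO4 was above PEO1 by 0.69 ± 0.28 (adjusted p = 0.0413), in overlapping libraries, and the adjusted p was 0.414 without replicate 1 and 0.453 without replicate 2. PEO6 was below PEO4 (−2.24 ± 0.48, adjusted p = 7.64e-05), which missed the threshold without replicate 1 (adjusted p = 0.0782) or replicate 2 (adjusted p = 0.0892).

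EPHA7 had no count in the 3 libraries of OVCAR4 ResB, against 1.53, 1.25 and 1.78 TPM in OVCAR4. That made it at least 176-fold lower (adjusted p = 5.8e-12), with adjusted p = 0.165 and 0.219 without replicates 2 and 3. OVCAR4 ResA was at 0.0735, 0.0477 and 0.191 TPM (−4.51 ± 0.59, adjusted p = 3.82e-12), so EPHA7 was low in both derivations while EPHA4 was low in 1 of them. PEA2 had 1, 0 and 0 counts against 2.19, 1.54 and 2.27 TPM in PEA1, a ratio of 580 with a counting interval of 104 to 2.29e+04 (adjusted p = 7.49e-12). The gene also fell in OVCAR3 ResA, to 0.312, 0.153 and 0.0897 TPM from 1.11, 1.02 and 0.361 TPM (−2.03 ± 0.45, adjusted p = 2.79e-05). PEO4 moved the other way, at 1.96, 1.46 and 1.64 TPM against 0.373, 0.307 and 0.379 TPM in PEO1 (2.86 ± 0.38, adjusted p = 1.9e-12). PEO6, at 0.543, 0.0894 and 0.311 TPM, was below PEO4 (−2.79 ± 0.50, adjusted p = 8.95e-07). In OVCAR3 ResB the change was −0.49 ± 0.55 (adjusted p = 0.794).

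EPHA5, a receptor chiefly of the nervous system, was barely detected. No library had more than 17 counts, the highest being in PEA1, and OVCAR3 ResA and OVCAR4 ResB had none. It was not called in any comparison of 2 lines. PEA1 had 17, 6 and 9 counts and PEA2 had 1, 2 and 1, with libraries that did not overlap and a ratio of 8.13 (counting interval 2.88 to 31.7, adjusted p = 0.0794 in DESeq2).

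Among the B-class receptors, EPHB2, which binds ephrin-B ligands and is known for positioning cells in the intestinal crypt, was highest in PEO1, PEA1 and PEA2. In PEO4 it fell to 7.14, 6.07 and 4.94 TPM from 38.1, 22.1 and 37.8 TPM in PEO1 (−2.36 ± 0.19, adjusted p = 5.12e-33). PEO6 was at 3.88, 5.13 and 12.5 TPM, below all libraries of PEO1, with a fitted difference of −2.36 ± 0.28. That comparison chose the list, so this difference carries no test. EPHB2 rose in OVCAR3 ResA, to 19.4, 16.0 and 11.3 TPM from 9.70, 7.03 and 7.39 TPM (0.79 ± 0.14, adjusted p = 1.77e-07). It was also higher in OVCAR4 ResA, at 5.75, 8.55 and 11.4 TPM against 2.30 to 3.09 TPM (1.11 ± 0.35, adjusted p = 0.0193), which failed without replicate 2 (adjusted p = 0.374) or replicate 3 (adjusted p = 0.870). OVCAR4 ResB was below OVCAR4 ResA (−1.05 ± 0.16, adjusted p = 1.29e-09). PEA1 and PEA2 differed by 0.23 ± 0.30 (adjusted p = 0.559).

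EPHB3, a close relative of EPHB2 with partly shared roles, was called in more of the tested pairs than any other B-class member and in both directions. It fell in OVCAR3 ResA, from 7.89, 6.28 and 6.25 TPM to 1.38, 1.44 and 1.40 TPM (−2.41 ± 0.20, adjusted p = 1.97e-33). OVCAR3 ResB was at 2.14, 2.31 and 5.09 TPM (−1.31 ± 0.38, adjusted p = 0.011), so all libraries of both derivations lay below those of the parent. The OVCAR3 ResB call was lost without replicate 1 (adjusted p = 0.407) or replicate 2 (adjusted p = 0.351). In the OVCAR4 family the direction was the opposite. OVCAR4 ResA was at 1.96, 2.34 and 2.21 TPM against 0.293, 0.184 and 0.173 TPM in OVCAR4 (2.83 ± 0.54, adjusted p = 8.14e-06), with an adjusted p of 0.0586 without replicate 3. OVCAR4 ResB was at 0.357, 1.28 and 1.15 TPM (1.38 ± 0.69, adjusted p = 0.159) and was below OVCAR4 ResA (−1.40 ± 0.40, adjusted p = 0.0021), a call lost without replicate 1 (adjusted p = 0.0512) or replicate 2 (adjusted p = 0.0614). PEA2 rose to 0.912, 0.833 and 0.913 TPM from 2, 0 and 5 counts in PEA1 (5.11 ± 0.84, adjusted p = 9.23e-09), beside the marker differences of that pair given above. PEO1 and PEO4 held the most, 12.7 ± 4.30 and 12.4 ± 2.30 TPM, with overlapping libraries (0.05 ± 0.22, adjusted p = 0.893). PEO6, at 4.31, 7.03 and 8.04 TPM, was below PEO4 (−1.03 ± 0.32, adjusted p = 0.0123), which did not hold without replicate 1 (adjusted p = 0.342) or replicate 2 (adjusted p = 0.290).

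EPHB4, the receptor for ephrin-B2 known for arterial and venous patterning, was abundant in all lines, from 10.5 ± 3.32 TPM in OVCAR3 ResA to 44.2 ± 17.96 TPM in OVCAR4 ResB. In the order of its line means, each line overlapped the next. It rose in PEA2, at 30.5, 27.7 and 23.7 TPM against 15.3, 5.72 and 18.03 TPM (1.34 ± 0.29, adjusted p = 2.31e-05). OVCAR3 ResB was higher than OVCAR3, at 23.9, 16.5 and 54.5 TPM against 16.6, 9.72 and 9.85 TPM (1.14 ± 0.37, adjusted p = 0.0289), but the adjusted p was 0.0692 without replicate 1 and 0.357 without replicate 2. OVCAR3 ResA was lower than OVCAR3 by a small amount (−0.34 ± 0.13, adjusted p = 0.0273), a call that was lost without any 1 replicate (adjusted p between 0.0905 and 0.300) and without the replicate block (adjusted p = 0.384). OVCAR3 ResB was above OVCAR3 ResA by 1.47 ± 0.39 (adjusted p = 0.00214, and 0.0814 without replicate 2).

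EPHB6 has a kinase domain without catalytic activity. It was present in the OVCAR3 and PEO families and at most 8 counts per library in the OVCAR4 and PEA families. It rose in PEO4, at 5.02, 3.73 and 1.93 TPM against 1.33, 0.541 and 0.539 TPM in PEO1 (2.24 ± 0.31, adjusted p = 2e-11). PEO6 was at 2.13, 3.29 and 3.47 TPM, above all libraries of PEO1, in the comparison that chose the list and carries no test. In the OVCAR3 family it was 1.29 ± 0.166, 1.75 ± 0.474 and 1.85 ± 0.0840 TPM in the parent, ResA and ResB, with neither change past the threshold.

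**Figure D2:**
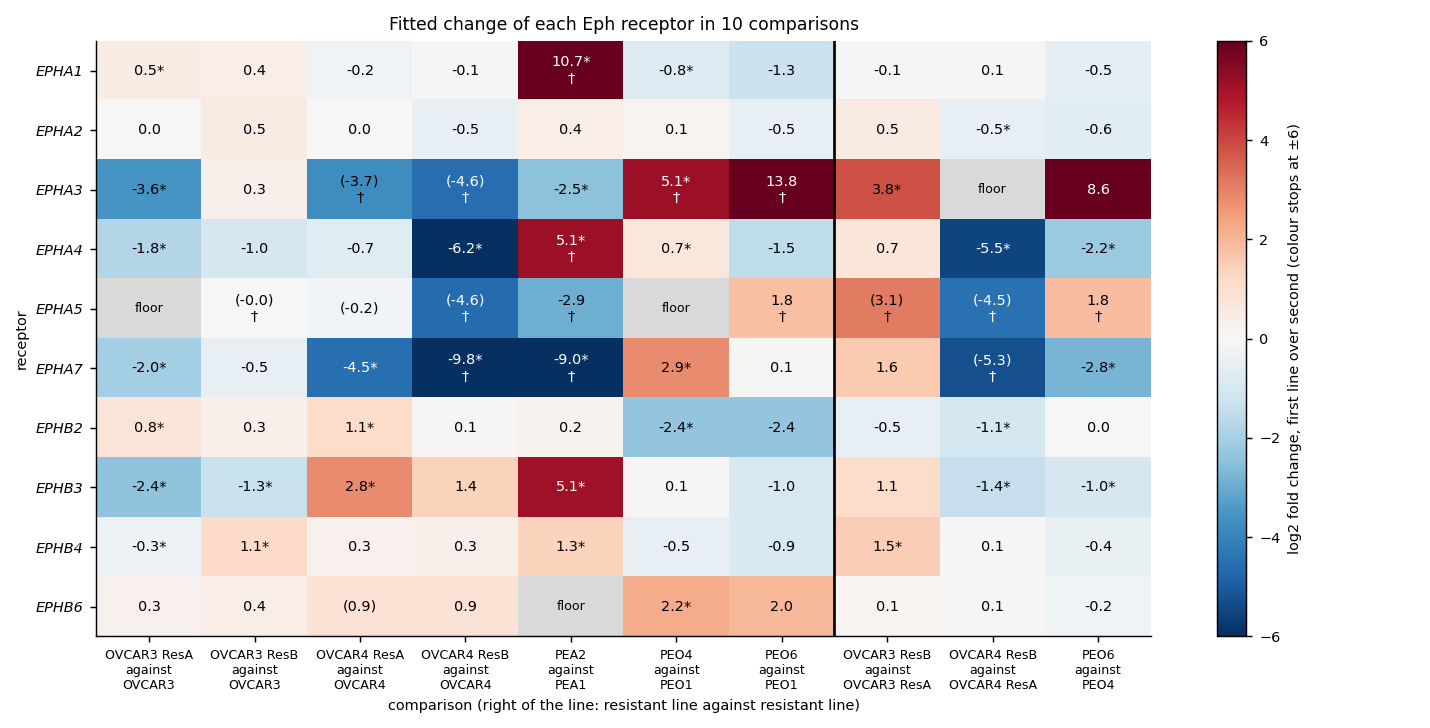
Fitted log2 fold change of each receptor (rows) in 7 resistant against sensitive pairs and 3 comparisons between resistant lines (columns), with colour stopping at ±6. Stars mark adjusted p under 0.05 where the receptor was tested, brackets no adjusted p, daggers a line at the floor, where the fitted value is no bound, and grey cells both lines at the floor; PEO6 against PEO1 and EPHA3 in PEO6 have no stars because they chose the list. Over the 6 pairs other than PEO6 against PEO1, EPHA7 has the most stars, 5, of which 1 is higher and 4 are lower.

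Counted by pair, 7 of 9 members with an adjusted p were called in OVCAR3 ResA, 2 higher and 5 lower, where 44.9% of all genes tested were called (22.0% higher and 22.9% lower). In the same pair 7 of 8 epithelial and Müllerian markers were called, 2 higher and 5 lower, with a median log2 change of −0.98 and a summed level of 2488 to 3125 TPM in OVCAR3 ResA against 5524 to 7393 TPM in OVCAR3. The part of the marker change in the receptor counts was not tested. In PEA2, 6 of 9 were called, 4 higher and 2 lower, against 47.0% of all genes (23.3% higher and 23.8% lower). In PEO4 it was 6 of 10, 4 higher and 2 lower, against 33.3% (16.6% higher and 16.7% lower). OVCAR4 ResA had 3 of 7 called, 2 higher and 1 lower, against 11.9% of all genes (6.68% higher and 5.22% lower). In OVCAR4 ResB, 2 of 8 were called and both were lower, against 17.9% of all genes called either way, 9.09% higher and 8.77% lower. OVCAR3 ResB had 2 of 9 called, 1 higher and 1 lower, against 7.67% (4.10% higher and 3.57% lower). Median log2 changes of the members were taken over all 10, with or without an adjusted p, unlike the counts above. They were −1.05, 0.31, 0.10, −0.07, −0.30 and 0.31 in these 6 pairs in the order given. The median of all genes was within 0.03 of 0. The member medians include fitted values at the floor, among them EPHA5 in OVCAR3 ResA, and EPHA3 and EPHA5 in OVCAR4 ResB. They are therefore not read as a change of the list as a whole. Over the 60 combinations of member and pair outside PEO6 against PEO1, 26 were called, 13 of them higher and 13 lower. Another 26 were not called and 8 had no adjusted p. The share of all genes called ran from 7.67% to 47.0% over these 6 pairs, so the total has no single background. Pairs of 1 family share the libraries of the sensitive line, and PEO4 against PEO1 and PEO6 against PEO4 each share libraries with the comparison that chose the list. In PEO6 against PEO1, 7 of 10 members passed the same threshold, 2 higher and 5 lower, against 41.4% of all genes (21.2% higher and 20.3% lower). That count is given with no reading, since this comparison chose the list.

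Resistant lines of 1 family also differed from each other. Of 9 members, 2 were called between OVCAR3 ResB and OVCAR3 ResA, EPHA3 and EPHB4, both higher in OVCAR3 ResB, against 13.5% of all genes called either way, 7.47% higher and 6.04% lower. Between OVCAR4 ResB and OVCAR4 ResA, 4 of 7 were called, EPHA2, EPHA4, EPHB2 and EPHB3, all lower in OVCAR4 ResB, against 32.8% of all genes called either way, 16.2% higher and 16.5% lower. EPHA3 aside, 3 of 9 were called between PEO6 and PEO4, EPHA4, EPHA7 and EPHB3, all lower in PEO6, against 18.2% of all genes called either way, 9.86% higher and 8.33% lower. The PEO6 libraries also stood in the comparison that chose the list, so these 3 calls are given as a description.

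The difference between the pairs was also tested in 1 fit over the 33 libraries. The likelihood ratio test asked whether each resistant line's change from its own sensitive line was the same in all 7. That fit includes PEO6 against PEO1, the comparison that chose the list, so its adjusted p for the members is given as a description. All 9 members in it had an adjusted p under 0.05, from 2.05e-101 for EPHA1 to 0.00518 for EPHB6. The same was true of 70.2% of all 18973 genes tested. Without PEO6, whose values had helped to choose the list, an alternative added after the data were seen, the 9 members again had an adjusted p under 0.05 (from 2.01e-109 for EPHA1 to 0.00265 for EPHB6), against 64.8% of 18813 genes. PEO1, the other line of the comparison that chose the list, stayed in this fit.

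Taking the line as the unit, counts were summed over the 3 libraries of each line and resistant lines were compared with sensitive lines, with the family as a covariate. DESeq2 called 0 of 9 members at an adjusted p under 0.05, against 0.286% of all 23782 genes tested (0.130% higher and 0.156% lower). At an unadjusted p under 0.05 there was 1, EPHA7, and edgeR also called 0. The EPHA7 log2 difference in DESeq2 was −3.87 ± 1.24 (adjusted p = 0.234). It was negative in 5 of 7 pairs. EPHA7 was called when the PEO family, in which it rose in PEO4, was left out (−5.31 ± 1.29, adjusted p = 0.00802). That fit called 199 of all genes, against 68 with all families. The EPHA7 difference was −1.46 ± 1.26 without the OVCAR4 family and −2.45 ± 1.23 without the PEA family. Without PEO6, an alternative added after the data were seen, 0 members were called and EPHA7 was at −3.87 ± 1.32 (adjusted p = 0.270). EPHB6 had a positive fitted change in 6 of 7 pairs. These included the comparison that chose the list and both OVCAR4 pairs, with at most 8 counts in a library. Over the 6 pairs other than PEO6 against PEO1, EPHB6 was called in 1, PEO4. Its line-level difference was 0.74 ± 0.47, not called. EPHA2, the most abundant, differed by 0.08 ± 0.26.

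Summed over all 14 Eph receptors, the level ranged from 84.6 TPM in PEA1 to 187 TPM in OVCAR3 ResB. EPHA1, EPHA2, EPHB2 and EPHB4 together made up between 41.9% of that sum in PEO6 and 97.3% in OVCAR4 ResB, with a median of 93.8% over the lines. In PEO6, EPHA3 made up 46.7% ± 5.44 of the sum, with EPHA2 at 16.9%, and these shares follow from the EPHA3 level that chose the list. B-class receptors took from 22.6% in OVCAR3 ResA to 61.5% in PEO1.

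**Figure D3:**
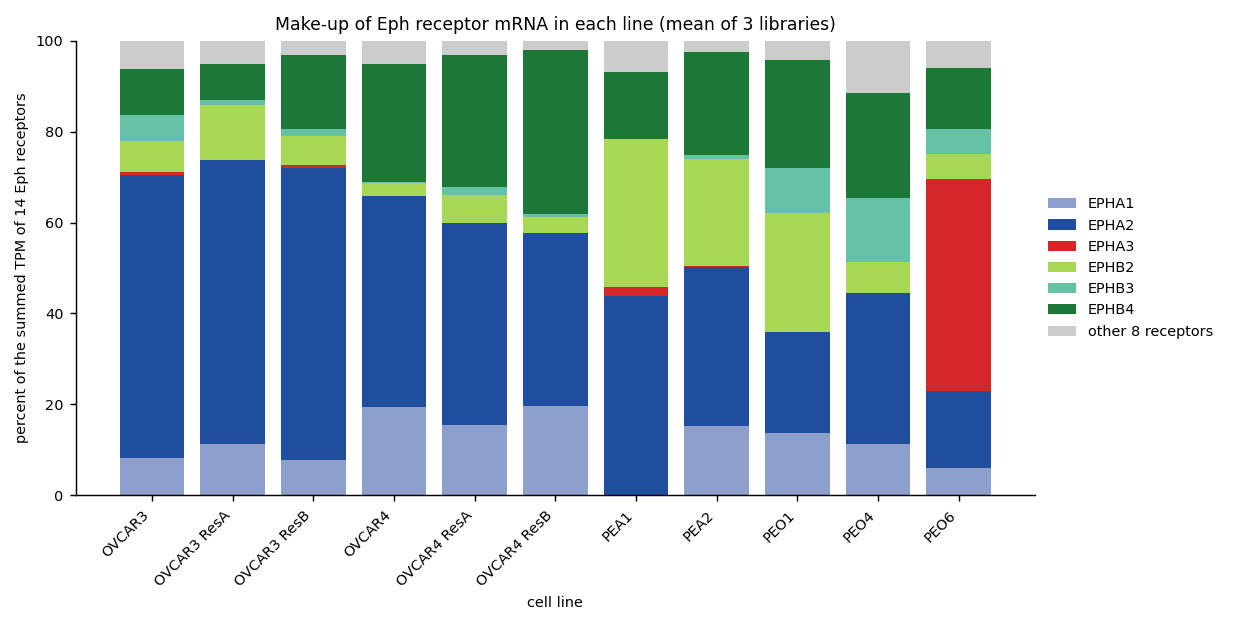
Share of each receptor in the summed TPM of 14 Eph receptors, as the mean of 3 libraries in each of 11 lines. EPHA2 is the largest share in most lines, EPHA3 is visible as a large share in PEO6 at 46.7%, and PEO1 has the largest B-class share at 61.5%.

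The remaining Eph receptors were low. EPHB1 was called in 4 of the 6 pairs other than PEO6 against PEO1. It fell from 1.51 ± 0.0293 TPM in OVCAR3 to 0.108 ± 0.0630 TPM in OVCAR3 ResA (−4.03 ± 0.47, adjusted p = 2.92e-16), and it was above OVCAR4 in OVCAR4 ResB, at 0.660 ± 0.0346 against 0.0190 ± 0.0226 TPM (4.83 ± 1.09, adjusted p = 0.000189). EPHA6 rose in OVCAR3 ResA, to 3.41 ± 2.25 from 0.568 ± 0.468 TPM (2.56 ± 0.40, adjusted p = 2.4e-09), and fell in PEA2 (−3.39 ± 0.77, adjusted p = 5.51e-05). EPHA10 was called in 1 pair, lower in PEO4, and EPHA8 in none, with at most 8 counts in a library.

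Of the ligands, 5 ephrin-A and 3 ephrin-B genes were in the tables. In OVCAR3 ResA, 7 of 8 were called (4 higher and 3 lower), in PEO4 5 of 8 (3 higher and 2 lower) and in PEA2 4 of 8 (3 higher and 1 lower). OVCAR4 ResB had 2 of 8 called, 1 in each direction, OVCAR4 ResA 1, higher, and OVCAR3 ResB 1, lower. The share of all genes called in each pair is that given above for the receptors.

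EFNB2, the ligand of EPHB4, was called in 5 of the same 6 pairs and reached the highest level of the ligands. It was at 119, 137 and 190 TPM in OVCAR4 ResA against 46.0, 23.8 and 25.9 TPM in OVCAR4 (1.73 ± 0.31, adjusted p = 2.3e-06). It was at 69.0, 69.9 and 52.0 TPM in PEA2 against 6.39, 4.95 and 5.36 TPM in PEA1 (3.63 ± 0.22, adjusted p = 8.95e-59). It fell in both OVCAR3 derivations, from 50.9 ± 8.20 TPM to 8.90 ± 1.32 TPM in ResA (−2.66 ± 0.13, adjusted p = 2.81e-84) and 14.5 ± 1.74 TPM in ResB (−1.92 ± 0.33, adjusted p = 5.58e-07). EFNB2 and its receptor EPHB4 were both called higher in PEA2 and both called lower in OVCAR3 ResA. In OVCAR3 ResB EFNB2 was called lower where EPHB4 was called higher. The EPHB4 calls in the 2 OVCAR3 derivations were lost when single replicates were left out, as given above. EFNB2 was also called lower in PEO4 (−1.28 ± 0.30, adjusted p = 0.000141), and EPHB4 was not called there or in OVCAR4 ResA.

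EFNA5, a ligand of EPHA3 and other A-class receptors, was called in 4 of the 6 pairs. It rose in PEO4, to 56.3, 51.1 and 45.6 TPM from 17.8, 12.5 and 18.8 TPM in PEO1 (1.70 ± 0.17, adjusted p = 4e-22), and PEO6 was at 43.5, 60.1 and 46.6 TPM. All libraries of both resistant PEO lines lay above those of PEO1 for EFNA5, while abundant EPHA3 was seen in PEO6. EFNA5 rose in PEA2, from 8.26 ± 0.822 to 24.8 ± 4.42 TPM (1.70 ± 0.23, adjusted p = 1.19e-12), and fell in OVCAR4 ResB, from 22.5 ± 2.55 to 5.98 ± 0.562 TPM (−2.48 ± 0.34, adjusted p = 2.31e-11). OVCAR4 ResA stayed at 26.7 ± 3.82 TPM and differed from OVCAR4 ResB (adjusted p = 1.97e-76).

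EFNA1, a high-affinity ligand of EPHA2, was called in 3 of the 6 pairs. It rose in OVCAR3 ResA, to 60.3 ± 6.82 from 33.05 ± 4.17 TPM (0.72 ± 0.13, adjusted p = 3.2e-07), and in PEA2, to 21.0 ± 1.42 from 5.48 ± 1.42 TPM (2.07 ± 0.31, adjusted p = 1.37e-10). It fell in PEO4, to 12.0 ± 0.246 from 31.3 ± 5.69 TPM (−1.29 ± 0.23, adjusted p = 2.27e-07). EFNA3 reached 39.8 ± 6.89 TPM in OVCAR3 ResA against 9.25 ± 2.45 TPM in OVCAR3 (1.98 ± 0.15, adjusted p = 8.64e-40). EFNB3 was called higher in 2 of the 6 pairs, OVCAR3 ResA (0.84 ± 0.18, adjusted p = 8.91e-06) and PEO4 (0.67 ± 0.24, adjusted p = 0.0197). It fell in PEA2, to 0.356 ± 0.0609 from 7.90 ± 3.28 TPM (−4.25 ± 0.37, adjusted p = 4.27e-29). EFNB1 was called higher in PEO4 (0.74 ± 0.17, adjusted p = 0.000129) and in OVCAR4 ResB (1.81 ± 0.44, adjusted p = 0.000629). It fell in OVCAR3 ResA, to 4.96 ± 0.917 from 15.6 ± 1.64 TPM (−1.81 ± 0.15, adjusted p = 7.01e-31). EFNA2 was low, with line means of at most 1.15 TPM, and was called lower in OVCAR3 ResA (−1.38 ± 0.58, adjusted p = 0.0399) and in OVCAR4 ResB against OVCAR4 ResA (−1.57 ± 0.62, adjusted p = 0.0383). EFNA4 was called in none of the 6 pairs.

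**Figure D4:**
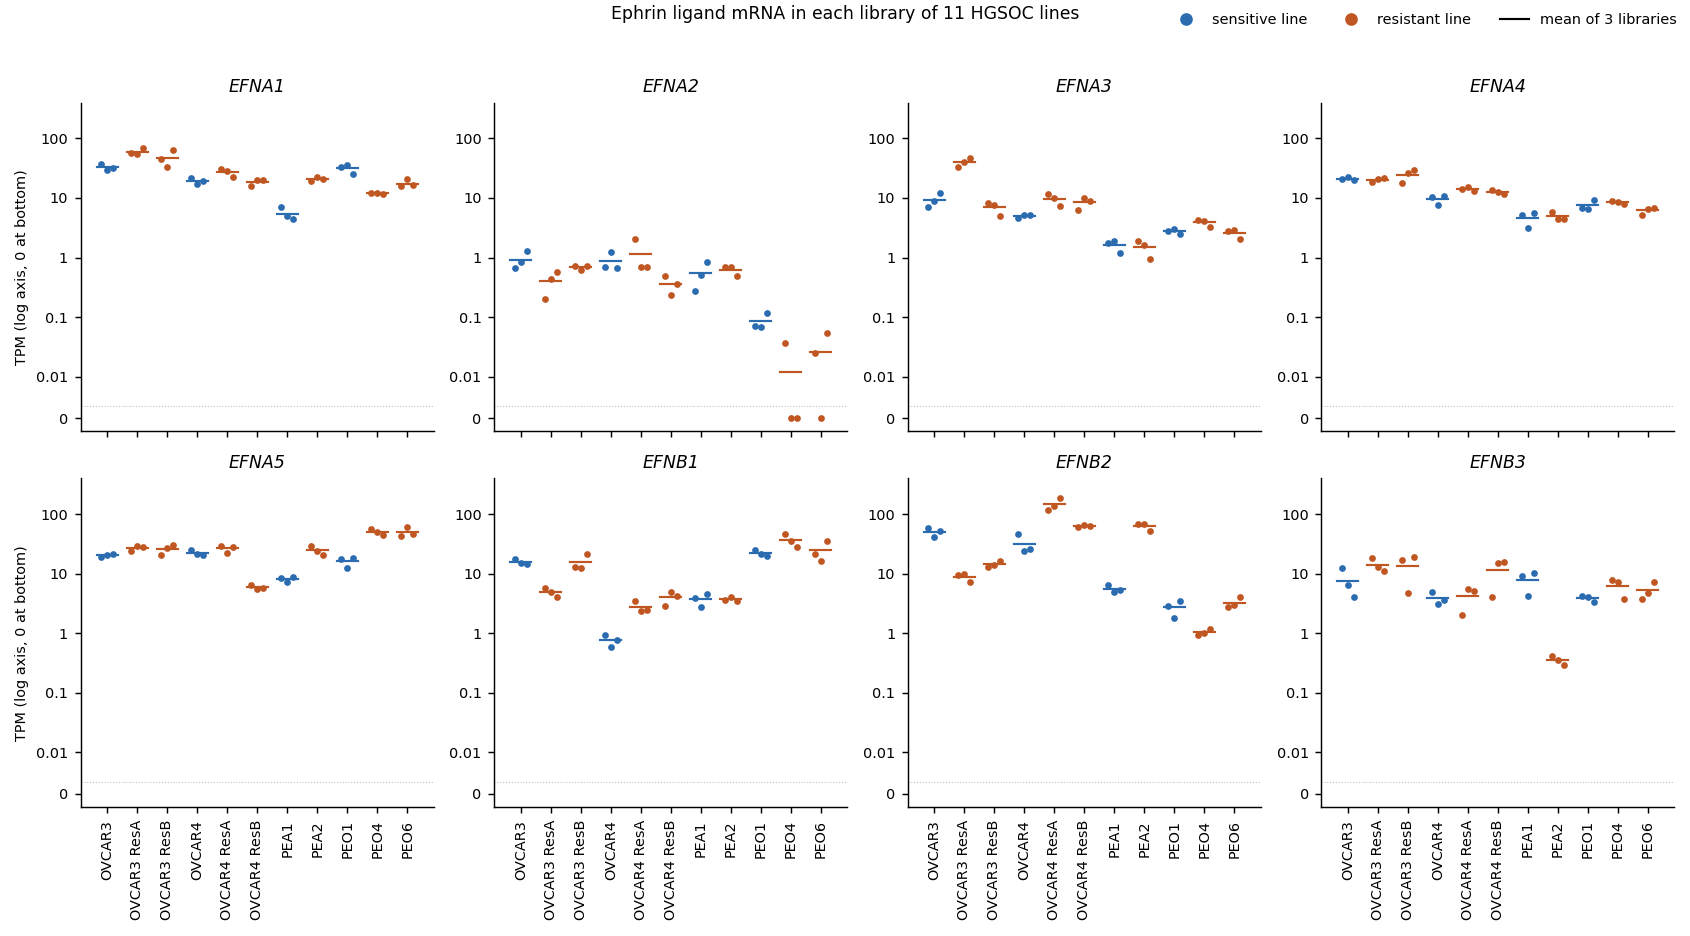
TPM of the 8 ephrin ligands (log axis, 0 drawn at the bottom) in the 3 libraries of each of 11 lines, blue for sensitive and orange for resistant lines, with bars at the means. EFNB2 reaches 190 TPM in OVCAR4 ResA, and EFNA5 is high in PEO4 and PEO6.

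Genes that act downstream of the receptors, 45 in all, were counted in the same way, among them 23 adaptors and kinases and 7 proteases and phosphatases. In OVCAR3 ResA 23 of 44 with an adjusted p were called (10 higher and 13 lower), beside 44.9% of all genes. In PEA2 24 of 44 were called (12 in each direction), beside 47.0% of all genes, and in PEO4 17 of 44 (12 higher and 5 lower), beside 33.3%. OVCAR4 ResB had 8 of 43 (4 in each direction) beside 17.9%, OVCAR4 ResA 7 of 43 (6 higher and 1 lower) beside 11.9%, and OVCAR3 ResB 1 of 43, lower, beside 7.67%. The genes called in the most of the 7 pairs were MMP14, VAV3, CHN1 and FYN, each in 5, of which 4 were pairs other than PEO6 against PEO1. That choice counted the comparison that chose the list. Over the 6 other pairs SRC, a kinase, was also called in 4, 3 higher and 1 lower. MMP14, a membrane protease that can cut Eph receptors, rose in PEO4, to 3.95 ± 1.73 from 0.128 ± 0.0316 TPM (adjusted p = 1.59e-28), and was lower in PEA2, at 23.3 ± 1.93 against 67.6 ± 31.0 TPM (adjusted p = 1.01e-05). VAV3, an exchange factor that Eph receptors recruit, had no count in OVCAR4 ResB against 3.81 ± 0.940 TPM in OVCAR4 (adjusted p = 3.02e-14). In PEA2 VAV3 was at 0.0140 ± 0.0123 TPM against 39.5 ± 15.0 TPM in PEA1 (adjusted p = 1.43e-26). CHN1, a Rac-inactivating protein that acts below EPHA4, fell in 4 pairs and was at 19.98 ± 7.77 TPM in PEO6 against 8.17 ± 1.84 TPM in PEO1. FYN, a Src-family kinase, fell in OVCAR3 ResA and PEO4 and rose in OVCAR4 ResB and PEA2.

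The genes whose profile over the 11 line means was most like that of EPHA3 were PCDH15, RERG, VSTM2L, AQP9 and ZBTB7C, out of 13185 genes with at least 5 TPM in a line. Each profile was scaled to a sum of 1, and the half-sum of absolute differences from EPHA3 was 4.44%, 4.45%, 4.76%, 5.18% and 5.93% of the profile. RERG was at 149 ± 29.4 TPM in PEO6 and at most 2.63 TPM in another line, and VSTM2L at 207 ± 14.1 and at most 6.48 TPM. PEO6 held between 93.3% and 96.8% of the summed line means of the 5 genes. This likeness follows from the single line in which all of them are high.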

How the data were processed

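Poly(A)-selected mRNA of 33 libraries was analysed, 3 from each of 11 lines. Groups and replicate numbers came from the sample titles, which name the line, and the roles (sensitive or resistant) and families from the study's text. Per the submitters' processing notes, reads were converted with DRAGEN and the build was GRCh38. Per the study's methods, the nf-core RNA-seq pipeline with salmon gave gene values. The expected counts deposited by the authors were not normalised, and 88.4% of them were whole numbers. The TPM deposited by the authors are scaled to transcript length and to a common sum, and carry no depth. Strand use in counting is not given in the sources used here. No column lay outside the labelled samples. Totals ran from 18058985 to 43394009 counts per library, so that genes with few counts are measured with the least precision.

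Expected counts were rounded and tested with DESeq2 1.42.0 in R 4.3.3, as in the study's methods: Wald tests on the 6 libraries of each of 10 comparisons, with the replicate number as a block and no filter before fitting, and Benjamini-Hochberg adjustment over all genes with a threshold of 0.05. Where DESeq2 gave no adjusted p, none is printed. A test over lines used counts summed over the 3 libraries with the family as a covariate, and a likelihood ratio test asked whether the changes differed between resistant lines. Alternatives were the fit without the block, edgeR 4.0.16, TMM scaling, a filter of 10 counts in 3 libraries, 1 fit over 33 libraries, limma 3.58.1 on log2(TPM + 1) or log2(TPM + 0.1) for genes with a mean of at least 0.5 TPM, limma without that filter, and leaving out each replicate number or family. The fits were tested on simulated data. Tables and figures used Python 3.11.15 with pandas 2.3.3 and scipy 1.17.1.

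The members and the gene lists were chosen with earlier results of these data known. All members, other Eph receptors and ephrins are accounted for. Of the genes downstream, the text names the 4 called in the most of the 7 pairs with a mean of at least 1 TPM. The genes most like EPHA3 are the 5 with the smallest half-sum of differences. Same-numbered libraries deviated together, with all 3 correlations over 0.1, in 2 of 10 comparisons (OVCAR3 ResA against OVCAR3 and OVCAR4 ResB against OVCAR4 ResA). Summed over a line, 3 endothelial markers averaged at most 7.37 TPM and 4 leukocyte markers at most 56.1 TPM, both highest in PEA2. Counting intervals cover counting error only. Sequences and positions are from RefSeq GRCh38.p14, and the genome of another build was not used.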

Additional observations from a re-analysis of the deposited data

Results flagged for a closer look

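For all 9 receptors counted, the change from the sensitive to the resistant line differed between the 7 resistant lines. This was by the likelihood ratio test of DESeq2 over 33 libraries, beside 70.2% of all genes tested. EPHA3 was left out of the count because its level in PEO6 chose the list. This count and the values below include PEO6 against PEO1, the comparison on which the list was chosen, and are given as a description. Without PEO6, an alternative added after the data were seen, the adjusted p ran from 2.01e-109 for EPHA1 to 0.00265 for EPHB6, beside 64.8% of all genes. PEO1, the other line of that comparison, stayed in the fit. With all 33 libraries the adjusted p was 2.05e-101 for EPHA1, which was near 0 in PEA1 and present in PEA2. It was 2.22e-72 for EPHA7, which fell in both OVCAR4 derivations, OVCAR3 ResA and PEA2 and rose in PEO4. For EPHB3, which fell in both OVCAR3 derivations and rose in OVCAR4 ResA and PEA2, it was 2.76e-62. EPHA4 had 1.01e-57, with its lowest level among resistant lines in OVCAR4 ResB. EPHB2 had 1.5e-20, falling in PEO4 and rising in OVCAR3 ResA and OVCAR4 ResA. EPHA2 had 1.05e-10, although none of the 6 pairs tested called it alone. EPHB4 had 2.49e-05, EPHA5, with at most 17 counts in a library, 0.000142, and EPHB6 0.00518.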

How the results depend on the processing

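Of 35 calls of a member in a comparison, 13 held under every alternative that gave an adjusted p and 22 were lost under at least 1. Without a replicate, 21 were never lost, but 1 of these, EPHA3 in PEO4, had no adjusted p without replicate 2. Another 24 results were called only under an alternative, 39 were never called, and 0 calls changed direction. Counts of members called moved as follows, and counts over all genes, given in brackets, moved too. OVCAR3 ResB had 2 (1255), against 1 with edgeR (946) and 4 in the fit over 33 libraries (3059). In the 3 limma fits it had 0 (217, 303 and 0), and without a replicate 0 to 3 (455 to 1934). OVCAR4 ResA had 3 (1784), against 0 with limma on log2(TPM + 1), with or without the filter (48 and 0), and 1 to 4 without a replicate (292 to 6221). OVCAR4 ResB had 2 (2853), against 4 without the replicate block (4765) and 6 in the fit over 33 libraries (5722). With limma on log2(TPM + 1), with or without the filter, it had 0 (200 and 1), and without a replicate 1 to 5 (631 to 7241). PEA2 had 6 (8088), against 3 with limma on log2(TPM + 0.1) (5750) and 3 without the TPM filter (5660), and 6 without any replicate (4283 to 6999). PEO4 had 6 (5820), against 3 in each limma fit (4339, 3795 and 3624) and 4 to 6 without a replicate (2921 to 6200). PEO6 against PEO1 had 7 (6962), against 2 with limma without the filter (3685) and 4 to 7 without a replicate (3712 to 5260). OVCAR3 ResB against OVCAR3 ResA had 2 (2202), against 6 in the fit over 33 libraries (5042). With limma and a pseudocount of 1 and 0.1 it had 0 and 1 (492 and 760), without the filter 0 (1), and without a replicate 1 to 3 (791 to 3724). OVCAR4 ResB against OVCAR4 ResA had 4 (5218), against 2 with limma on log2(TPM + 0.1) (3231), 2 without the TPM filter (3496) and 2 to 4 without a replicate (1847 to 4308). PEO6 against PEO4 had 3 (3043), against 0 and 1 with limma and a pseudocount of 1 and 0.1 (839 and 959). Without the filter it had 0 (167), and without a replicate 1 to 6 (752 to 5223). OVCAR3 ResA had 7 (8146), and 5 without a replicate (4920 to 5772). The line-level count of 0 (68) became 1 without the PEO family (199) and stayed 0 without a replicate (42 to 106). The likelihood ratio count of 9 (13317) ran from 7 to 9 (9405 to 13409). The filtered limma fits tested fewer genes, and the cause of the other shifts was not tested. Over 110 alternative fits, counts over the ephrins stayed within 1.5 times in 74, over the other Eph receptors in 61 and over the downstream genes in 48.

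Same-numbered libraries deviated together in all 3 replicates in 2 comparisons only, those named with the methods. In the remaining 8 the correlations ran from −0.68 to 0.56, and what those libraries share beyond a number is not known. Without the replicate block, EPHB4 in OVCAR3 ResA (adjusted p = 0.384) and EPHA2 between the OVCAR4 derivations (adjusted p = 0.105) were no longer called by DESeq2, and no other call of a member was lost. Genes at few counts, EPHA5 above all, are limited by depth.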
